A study of Mus musculus with 4 samples.

Results

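The genes described here form the PERK-ATF4-CHOP branch of the integrated stress response in MC38, a line of mouse colon adenocarcinoma cells, with Mgat5 intact or targeted. They were chosen by symbol, with earlier results of these data known. They are the sensor kinase Eif2ak3, the transcription factors Atf4, Ddit3, Atf3 and Cebpb, and the target and feedback genes Chac1, Trib3, Asns, Sesn2 and Ppp1r15a. All 10 were measured, out of 19505 named genes on the Clariom S mouse platform, whose oligonucleotide probes are read in 1 colour and summarised as 1 log2 signal per probe set. Ddit3 had 2 probe sets and the others 1 each, and the probe set with the highest mean signal stands for Ddit3.

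The series holds 4 arrays, each of 1 sample. The control group has n = 2 arrays, the parental MC38 cells (WT) and MC38 cells with an empty vector (MOCK). The knockout group has n = 2 arrays, clone 1 and clone 2 of cells in which Mgat5, the gene of a Golgi enzyme that branches N-glycans, was targeted with CRISPR-Cas9. No label names a stressor or other treatment for any array, or says whether the RNA came from separate cultures, so p-values measure only the spread between these arrays. Both knockout arrays are of clones and neither control is titled as one, so cloning and Mgat5 loss cannot be told apart. Mgat5 stood at 8.19 (MOCK) and 8.27 (WT) in the controls and 7.46 (clone 1) and 7.57 (clone 2) in the knockout, lower in both clones (limma, SE 0.37, adjusted p = 0.631), with a difference of -0.71 as deposited and -1.11 after quantile normalization, and no source says where its probes lie relative to the cut.

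WT stood apart from the other arrays at the bright end of the signal range. Its 95th percentile over the 22206 probe sets was 12.6 log2 units, against 13.4 in MOCK and 13.5 in each clone. As deposited, 65.1% of all probe sets were higher in the knockout, with a median difference of 0.18, and after quantile normalization, which gives every array 1 distribution, the share was 48.3% and the median -0.021. Values are as deposited unless the quantile scale is named. The median of the negative control features, used as the background level, was 5.22 (MOCK) and 5.12 (WT) in the controls and 5.16 (clone 1) and 5.20 (clone 2) in the knockout. Of 12 epithelial markers 0 were above it on all 4 arrays, with Epcam between 3.13 and 3.65, so the labelled carcinoma origin was not visible in these markers. The markers of macrophages and leukocytes (0 of 5), lymphocytes (1 of 4, which was Cd4) and endothelium (0 of 4) were no clearer, and their summed signals ran from 6.53 to 7.04, 6.71 to 7.64 and 5.93 to 6.26 log2 units.

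The integrated stress response slows general translation when a kinase such as PERK, the product of Eif2ak3, phosphorylates the initiation factor eIF2 in response to unfolded protein in the endoplasmic reticulum, amino acid shortage, heme shortage or double-stranded RNA. Translation of ATF4 mRNA increases under that condition, and ATF4 then switches on genes of amino acid supply and tRNA charging together with Ddit3, which encodes CHOP. CHOP and ATF4 bind composite C/EBP-ATF response elements, and their target Ppp1r15a encodes GADD34, which brings a phosphatase back to eIF2 and ends the response. Much of ATF4 control is at translation, which an mRNA array does not measure.

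The promoters of the members were searched for that composite element, because it is the class of sequence that ATF4 and CHOP are known to bind in their target genes. The letters searched were TGATGNAA, on both strands, in the window from 250 bases before to 50 bases after each RefSeq start in build GRCm38.p6. The element was found in 4 of the 10 member promoters, against 3.97% of 32851 promoters of the same length, and 0 of 10 held the longer form TGATGNAAT, which 0.965% of promoters held. Counted from the transcription start, with positions before it negative, the match lies at -193 to -186 in Chac1, at -110 to -103 in Atf3 and at -23 to -16 in Asns. The match of Trib3, TTACATCA, lies after the start, at 15 to 22. The stretches around the upstream matches are shown from 5′ to 3′ on the gene's strand, with the matched letters in capitals. In Chac1 and Atf3 the match is on the opposite strand, so the gene's strand as shown reads TTGCATCA.
Chac1, chr2:119351024-119351081, plus strand: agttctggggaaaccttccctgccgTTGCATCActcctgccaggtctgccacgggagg
Atf3, chr1:191183411-191183468, minus strand: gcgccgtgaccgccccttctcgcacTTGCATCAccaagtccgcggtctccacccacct
Asns, chr6:7693210-7693257, minus strand: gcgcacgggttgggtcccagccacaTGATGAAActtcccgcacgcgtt

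A match describes letters and not binding, and the window leaves out elements farther away. The endoplasmic reticulum stress element (CCAAT, any 9 bases, then CCACG, on either strand) was in 0 of 10 member promoters and in 0.119% of all promoters. In the list of chaperones and other XBP1-ATF6 genes that element was in 9 of 20 promoters and the ATF4-CHOP element in 1, which was Herpud1. The tRNA charging genes, a class of ATF4 targets, held the ATF4-CHOP element in 5 of 9 promoters (Aars, Gars, Iars, Tars and Yars).

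Across the 10 members the knockout mean was higher than the control mean for each gene as deposited, by 0.29 to 2.76 log2 units, with a median of 1.22. In limma 0 of 10 passed an adjusted p of 0.05, against 0.0405% of all probe sets, and 6 of 10 had an unadjusted p under 0.05, all higher, against 7.54% of all probe sets in that direction. After quantile normalization the median difference was 0.81, 8 of 10 were higher, 0 were called (0.0045% of all probe sets) and 5 had an unadjusted p under 0.05 (4.7% of all probe sets in that direction). Both clones lay above both controls for 9 of 10 members as deposited, against 27.8% of all probe sets, and for 7 of 10 after quantile normalization, against 19.2%. The members whose groups overlapped after quantile normalization were Eif2ak3, Atf3 and Cebpb. Since the members were chosen with earlier results of these data known, these counts describe the set and do not test it.

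**Figure D1:**
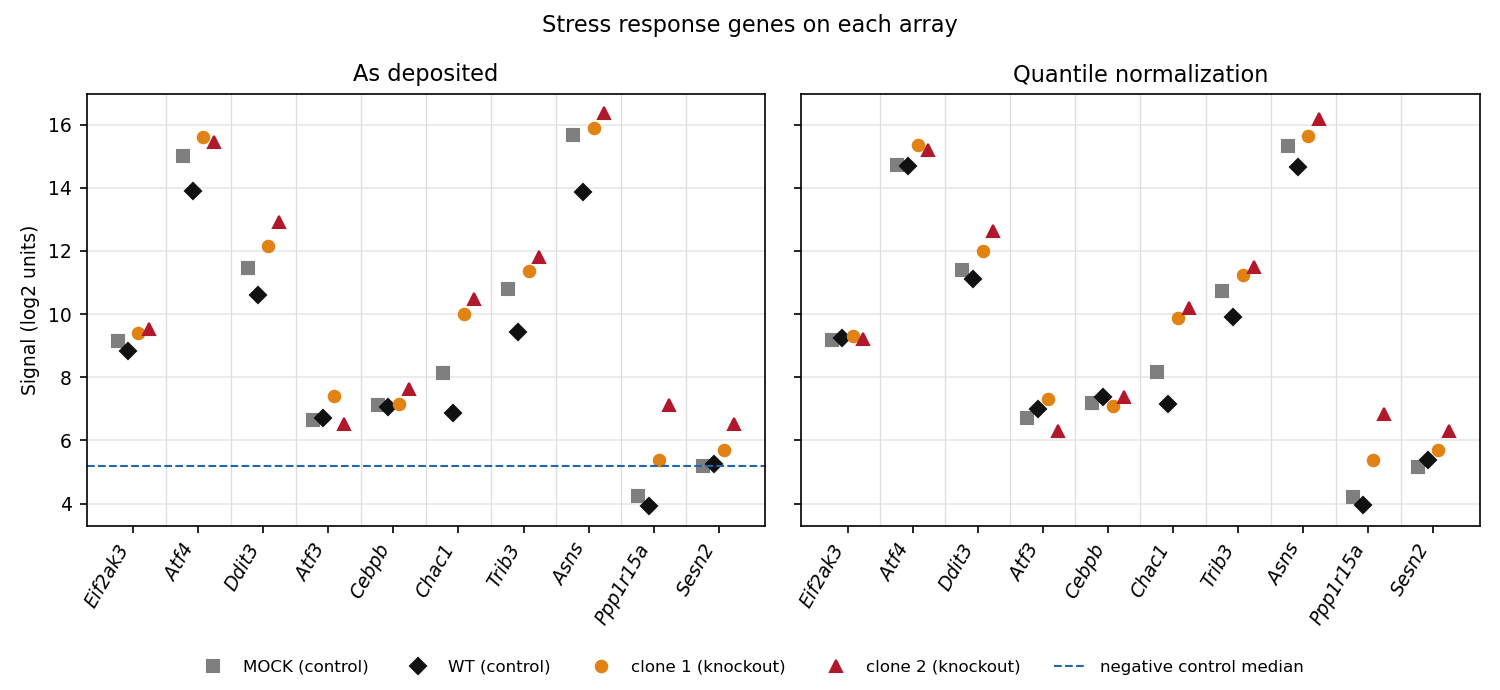
Log2 signal (y axis) of the 10 stress response genes on each of the 4 arrays, 1 point per array, as deposited (left) and after quantile normalization (right); the dashed line in the left panel is the mean over arrays of the negative control median. Chac1, at 10.01 and 10.48 in the clones, lies above both controls on either scale, while Eif2ak3, Atf3 and Cebpb overlap once the arrays share 1 distribution.

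The sensor Eif2ak3, which encodes PERK, differed little. Its signal was 9.14 (MOCK) and 8.85 (WT) in the controls and 9.41 (clone 1) and 9.53 (clone 2) in the knockout. The clones were the higher pair by a narrow margin, with a difference of 0.48 log2 units (limma, SE 0.37, adjusted p = 0.756). After quantile normalization all 4 arrays lay between 9.17 and 9.29 and the difference was 0.043.

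Atf4, the central transcription factor, stood at 15.02 (MOCK) and 13.90 (WT) in the controls and 15.62 (clone 1) and 15.45 (clone 2) in the knockout. The clones were the highest arrays and WT was the lowest. The difference was 1.07 log2 units (limma, SE 0.44, adjusted p = 0.531), and the knockout mean was 0.51 above MOCK alone and 1.63 above WT alone. After quantile normalization MOCK and WT coincided at 14.71 and 14.70, the clones stood at 15.36 and 15.20, and the difference was 0.58 (SE 0.30, adjusted p = 0.611). The gap between the groups was thus similar on both scales, 0.43 and 0.49, while the gap between the controls closed from 1.12 to 0.016.

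Ddit3, which encodes the death-promoting factor CHOP, was 11.46 (MOCK) and 10.62 (WT) in the controls and 12.16 (clone 1) and 12.92 (clone 2) in the knockout. Clone 2 was the highest array and the groups did not overlap. The means were 11.04 ± 0.59 and 12.54 ± 0.54 (SD, n = 2 each), a difference of 1.5 log2 units (limma, SE 0.44, unadjusted p = 0.00658, adjusted p = 0.353), and of 1.06 after quantile normalization. The other Ddit3 probe set gave the same order of arrays, at 9.47 (MOCK) and 8.77 (WT) in the controls and 9.85 (clone 1) and 10.62 (clone 2) in the knockout, with a difference of 1.11 (SE 0.43, adjusted p = 0.507).

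Atf3 and Cebpb, bZIP factors that also respond to signals other than eIF2 phosphorylation, did not follow Ddit3. Atf3 stood at 6.65 (MOCK) and 6.70 (WT) in the controls and 7.40 (clone 1) and 6.53 (clone 2) in the knockout. Clone 1 was the highest array and clone 2 the lowest, so the groups overlapped (difference 0.29, SE 0.42, limma adjusted p = 0.88). The Cebpb signals were 7.13 (MOCK) and 7.06 (WT) in the controls and 7.16 (clone 1) and 7.63 (clone 2) in the knockout. The difference was 0.31 and clone 1 exceeded MOCK by only 0.036 log2 units, so that without clone 2 the difference was 0.072, and after quantile normalization the differences of Atf3 and Cebpb were -0.039 and -0.054.

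Chac1, which encodes a glutathione-degrading enzyme induced downstream of ATF4 and CHOP, had the largest difference among the members. It stood at 8.12 (MOCK) and 6.85 (WT) in the controls and 10.01 (clone 1) and 10.48 (clone 2) in the knockout. Both clones were far above both controls, with the lower clone 1.89 log2 units above the higher control. The means were 7.49 ± 0.90 and 10.24 ± 0.33 (SD, n = 2 each), a 6.76-fold difference (2.76 log2 units, limma, SE 0.47, unadjusted p = 0.000137, adjusted p = 0.075). After quantile normalization the difference was 2.37 (SE 0.39, adjusted p = 0.169), with controls at 8.16 and 7.16 and clones at 9.88 and 10.19. Chac1 passed the threshold when dim probe sets were left out, with an adjusted p of 0.00014 among those at or above the median of mean signal, where 1.77% of 11103 probe sets were called, and over all alternatives its adjusted p ran from 1.11e-05 to 1.00. It was also under the threshold without clone 1 (adjusted p = 0.00248, 2.38% of all probe sets called) and without clone 2 (0.0286, 0.671% called), and above it without MOCK (0.31) and without WT (1.00).

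Trib3, a pseudokinase induced by CHOP that restrains ATF4, was 10.78 (MOCK) and 9.44 (WT) in the controls and 11.37 (clone 1) and 11.80 (clone 2) in the knockout. The clones were highest, but MOCK lay nearer to clone 1 than to WT. The difference was 1.47 log2 units (limma, SE 0.48, adjusted p = 0.391), 1.05 after quantile normalization, 0.80 against MOCK alone and 2.15 against WT alone.

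Asns, asparagine synthetase and a classic target of the amino acid branch of the response, stood at 15.66 (MOCK) and 13.88 (WT) in the controls and 15.89 (clone 1) and 16.36 (clone 2) in the knockout. WT was the array that stood apart, 1.78 log2 units below MOCK, and clone 1 was only 0.23 above MOCK. The difference of the group means was 1.36 (limma, SE 0.55, adjusted p = 0.516). After quantile normalization WT was still the lowest, at 14.67 against 15.33, 15.63 and 16.19 in MOCK, clone 1 and clone 2, and the difference was 0.91.

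Sesn2, which encodes a sestrin that damps mTORC1 signalling and is also a p53 target, had signals near background. It stood at 5.19 (MOCK) and 5.26 (WT) in the controls and 5.71 (clone 1) and 6.51 (clone 2) in the knockout. The clones were higher, but only clone 2 exceeded the 75th percentile of the negative control features, which was 6.49 on that array. The difference was 0.88 log2 units as deposited and 0.72 after quantile normalization (limma adjusted p = 0.58 and 0.579), and no fold is given at this signal. Without clone 2 the difference was 0.48, or 0.41 on the quantile scale.

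Ppp1r15a, whose product GADD34 closes the feedback loop to eIF2, was at 4.25 (MOCK) and 3.91 (WT) in the controls and 5.37 (clone 1) and 7.12 (clone 2) in the knockout, and both control values lay under the negative control median. Clone 2 alone was well above background, 1.75 log2 units over clone 1. With the controls set to the negative control median, the knockout mean was at least 2.11-fold higher, a bound that was not tested. That bound rests on clone 2, since clone 1 at 5.37 lay near the negative control median of its own array, 5.16. The limma p-values belong to the measured difference of 2.17, which uses the below-background controls (unadjusted p = 0.00214, adjusted p = 0.239). Leaving out probe sets not above the negative control median on 2 arrays gave an adjusted p of 0.00664, with 1.86% of 12068 probe sets called, but Ppp1r15a passed that filter only through the clones. Without clone 2 its measured difference was 1.29 in place of 2.17 (limma adjusted p = 0.459), and without clone 1 it was 3.04 (adjusted p = 0.00078).

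Set against each control alone, the members split by how much rested on WT. Ppp1r15a is left out of the counts against MOCK, because its controls lay below background, and the share over the array is of the 11608 probe sets whose control mean was above it. Sesn2 is kept on its control mean of 5.23, but its MOCK signal of 5.19 lay just under the negative control median of that array, 5.22. Against MOCK, clone 1 was at least 1 log2 unit higher for 1 of 9 members, Chac1 (1.89), against 6.49% of those probe sets, and clone 2 for 4 of 9 (Ddit3, Chac1, Trib3 and Sesn2), against 12.3%. Between the controls 4 of 10 members, Atf4, Chac1, Trib3 and Asns, were at least 1 log2 unit higher in MOCK than in WT, against 8.79% of all probe sets, and after quantile normalization 0 of 10 were (1.85%). On the quantile scale the MOCK excess of these genes was 0.999 for Chac1, just short of the count, 0.83 for Trib3, 0.66 for Asns and 0.016 for Atf4. WT was the lowest array for 8 of 10 members as deposited, against 46.4% of all probe sets, and for 6 of 10 after quantile normalization, against 23.2%. These differences compare single arrays and have no test.

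**Figure D2:**
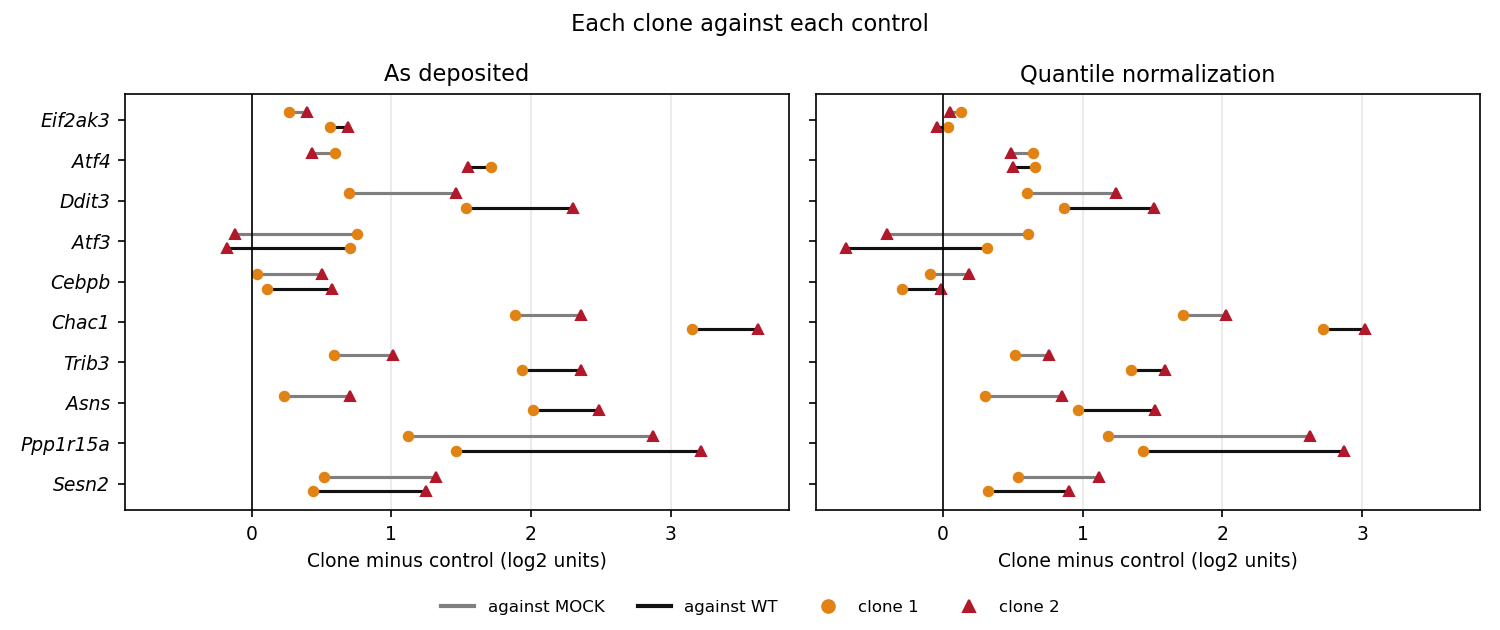
Difference of clone 1 (circle) and clone 2 (triangle) from MOCK (grey line) and from WT (black line) for each stress response gene, in log2 units, as deposited (left) and after quantile normalization (right). Chac1 is at least 1.72 log2 units higher in either clone than in either control on both scales, whereas the Asns difference as deposited is 0.23 and 0.70 against MOCK but 2.02 and 2.49 against WT.

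Between the clones, the difference from the controls had 1 sign for 9 of 10 members as deposited. Each clone was at least 1 log2 unit above the control mean for 4 of the 9 members with controls above background (Ddit3, Chac1, Trib3 and Asns), against 3.94% of such probe sets, and after quantile normalization for 1 of 9 (Chac1), against 1.47%. With the below-background controls of Ppp1r15a taken as measured, the counts were 5 of 10 (2.65% of all probe sets) and 2 of 10 (1.28%), but clone 1 of Ppp1r15a was itself near background. Atf4 was just outside that count as deposited, 1.15 above the control mean in clone 1 and 0.99 in clone 2. Clone 2 was the higher clone for 8 of 10 members as deposited, against 58.9% of all probe sets. After quantile normalization it was higher for 7 of 10, against 49.4%. As deposited it was higher by 1.75 log2 units in Ppp1r15a and 0.80 in Sesn2, both near background in clone 1, and by 0.76 in Ddit3. Atf3 was 0.88 log2 units higher in clone 1, and Atf4 was 0.16 higher there.

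The pathway around the members was described from lists of its parts, whose counts are to be read beside the shares over all probe sets. The lists too were chosen with earlier results of these data known, so their counts are no test. Of all probe sets 65.1% were higher in the knockout as deposited and 48.3% after quantile normalization. Both clones lay above both controls for 27.8% and 19.2%, and limma called 0.0405% and 0.0045%. As deposited, 7.54% were higher with a limma unadjusted p under 0.05. Among the amino acid synthesis and one-carbon genes, which ATF4 drives, 12 of 14 measured genes were higher in the knockout, 0 were called, 6 had an unadjusted p under 0.05 and the median difference was 0.94, against 0.18 over all probe sets. After quantile normalization 10 of 14 were higher, with a median of 0.55 against -0.021. On that scale 2 of 14 were higher with a limma unadjusted p under 0.05, against 4.7% of all probe sets. The alanine transaminase gene Gpt2 stood at 10.19 (MOCK) and 9.18 (WT) in the controls and 11.31 (clone 1) and 12.29 (clone 2) in the knockout, above both controls in both clones (difference 2.11, limma, SE 0.48, adjusted p = 0.198, and 1.7 after quantile normalization). The differences of Pck2, the mitochondrial PEPCK gene, and Psph, whose enzyme completes serine synthesis, were 1.47 and 1.37 as deposited, with both clones above both controls. The serine synthesis gene Psat1, named here after its values were seen, overlapped instead, at 16.25 (MOCK) and 14.61 (WT) in the controls and 15.89 (clone 1) and 15.65 (clone 2) in the knockout.

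The amino acid transporters were higher in 9 of 9 and the tRNA charging genes in 11 of 12, with medians of 0.78 and 0.95 and 0 called. After quantile normalization 9 of 9 and 10 of 12 were higher, with medians of 0.33 and 0.49. Slc6a9, the glycine transporter gene, stood at 12.43 (MOCK) and 11.35 (WT) in the controls and 12.63 (clone 1) and 14.26 (clone 2) in the knockout. Clone 2 alone was far above MOCK, and the difference was 1.55 as deposited and 1.14 after quantile normalization. For Tars, the threonyl-tRNA synthetase gene, the signals were 13.10, 12.01, 13.68 and 13.96 in the same order, and both clones were the highest (difference 1.26, limma, SE 0.44, adjusted p = 0.447, and 0.77 after quantile normalization).

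As deposited, the knockout stood closer to MOCK than to WT in these 3 lists of amino acid supply. Against MOCK alone the medians were 0.47 for synthesis, 0.23 for transporters and 0.24 for tRNA charging, and against WT alone 1.45, 1.46 and 1.52. MOCK exceeded WT by a median of 1.03, 1.17 and 1.13 in these lists, against 0.27 over all probe sets. After quantile normalization the medians were 0.40, 0.22 and 0.31 against MOCK and 0.70, 0.60 and 0.60 against WT, a smaller contrast, and the MOCK excess was 0.30, 0.39 and 0.37, against 0.013 over all probe sets.

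Among the other ATF4 and CHOP targets 11 of 14 were higher, with 0 called and a median of 0.84, against 65.1% of all probe sets higher. Both clones lay above both controls in 9 of 14, against 27.8% of all probe sets. After quantile normalization 10 of 14 were higher (48.3% of all probe sets), with a median of 0.40, and 5 had both clones above both controls (19.2%). Nupr1, a stress-induced chromatin-associated factor, stood at 10.28 (MOCK) and 10.10 (WT) in the controls and 11.90 (clone 1) and 14.37 (clone 2) in the knockout. The controls were within 0.18 log2 units of each other and both clones were above them, clone 2 by far (difference 2.95, limma, SE 0.65, adjusted p = 0.189, and 2.54 after quantile normalization). Ero1a, the gene of an endoplasmic reticulum oxidase downstream of CHOP, differed by 1.13 (SE 0.38, adjusted p = 0.42), with both clones above both controls on either scale.

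Of the bZIP partners of ATF4 and CHOP, 7 of 8 were higher as deposited and 5 of 8 after quantile normalization, with 0 called. Cebpg, a dimer partner of ATF4, differed by 1.10 and 0.70 on these scales without overlap. Atf5, a factor under the same translational control as ATF4, overlapped, at 9.28 (MOCK) and 7.80 (WT) in the controls and 9.14 (clone 1) and 9.77 (clone 2) in the knockout.

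The eIF2 kinases and eIF2 machinery were higher in 13 of 14 as deposited and in 8 of 14 after quantile normalization, with medians of 0.51 and 0.16 and 0 called. Against MOCK alone the median was -0.038. Eif2ak2, the gene of the double-stranded RNA kinase PKR, stood at 10.45 (MOCK) and 9.73 (WT) in the controls and 11.24 (clone 1) and 11.81 (clone 2) in the knockout. Unlike in Eif2ak3, both clones remained above both controls after quantile normalization (difference 1.02, limma, SE 0.32, adjusted p = 0.462). The kinase genes Eif2ak1 and Eif2ak4, named here after their values were seen, overlapped on both scales. Their differences were 0.14 and 0.27 as deposited and -0.35 and -0.15 after quantile normalization. On the quantile scale both clones lay above both controls in 5 of 14 genes of this list and below both in 3, against 19.2% and 21.3% of all probe sets.

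Close family relatives that are not classic ATF4 targets were higher in 3 of 6 as deposited, with 0 called and a median of -0.0077. After quantile normalization 2 of 6 were higher and the median was -0.43. Both clones then lay below both controls in 3 of 6, against 21.3% of all probe sets. Trib1, a relative of Trib3, was 7.26 (MOCK) and 7.14 (WT) in the controls and 6.63 (clone 1) and 6.23 (clone 2) in the knockout. It was lower in both clones, with a difference of -0.77 log2 units (limma, SE 0.38, adjusted p = 0.607) and of -1.09 after quantile normalization, where Trib3 was higher by 1.47 and 1.05. Ppp1r15b, the constitutive counterpart of Ppp1r15a, was 9.44 (MOCK) and 9.48 (WT) in the controls and 10.28 (clone 1) and 10.07 (clone 2) in the knockout, and its groups overlapped after quantile normalization.

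The other arm of the endoplasmic reticulum stress response, the chaperones and other XBP1-ATF6 genes, was higher in 21 of 21 as deposited and 19 of 21 after quantile normalization, with medians of 0.75 and 0.32 and 0 called. Herpud1, an endoplasmic reticulum degradation factor that ATF4 also induces, stood at 13.61 (MOCK) and 12.65 (WT) in the controls and 14.61 (clone 1) and 15.30 (clone 2) in the knockout. Both clones were above both controls (difference 1.83, limma, SE 0.45, adjusted p = 0.237, and 1.35 after quantile normalization). Sdf2l1, a chaperone partner, was high in clone 1 alone, at 11.79 against 7.96 in MOCK, 8.71 in WT and 8.70 in clone 2. The chaperone gene Hspa5, named here after its values were seen, overlapped on both scales, with differences of 0.47 and 0.12.

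**Figure D3:**
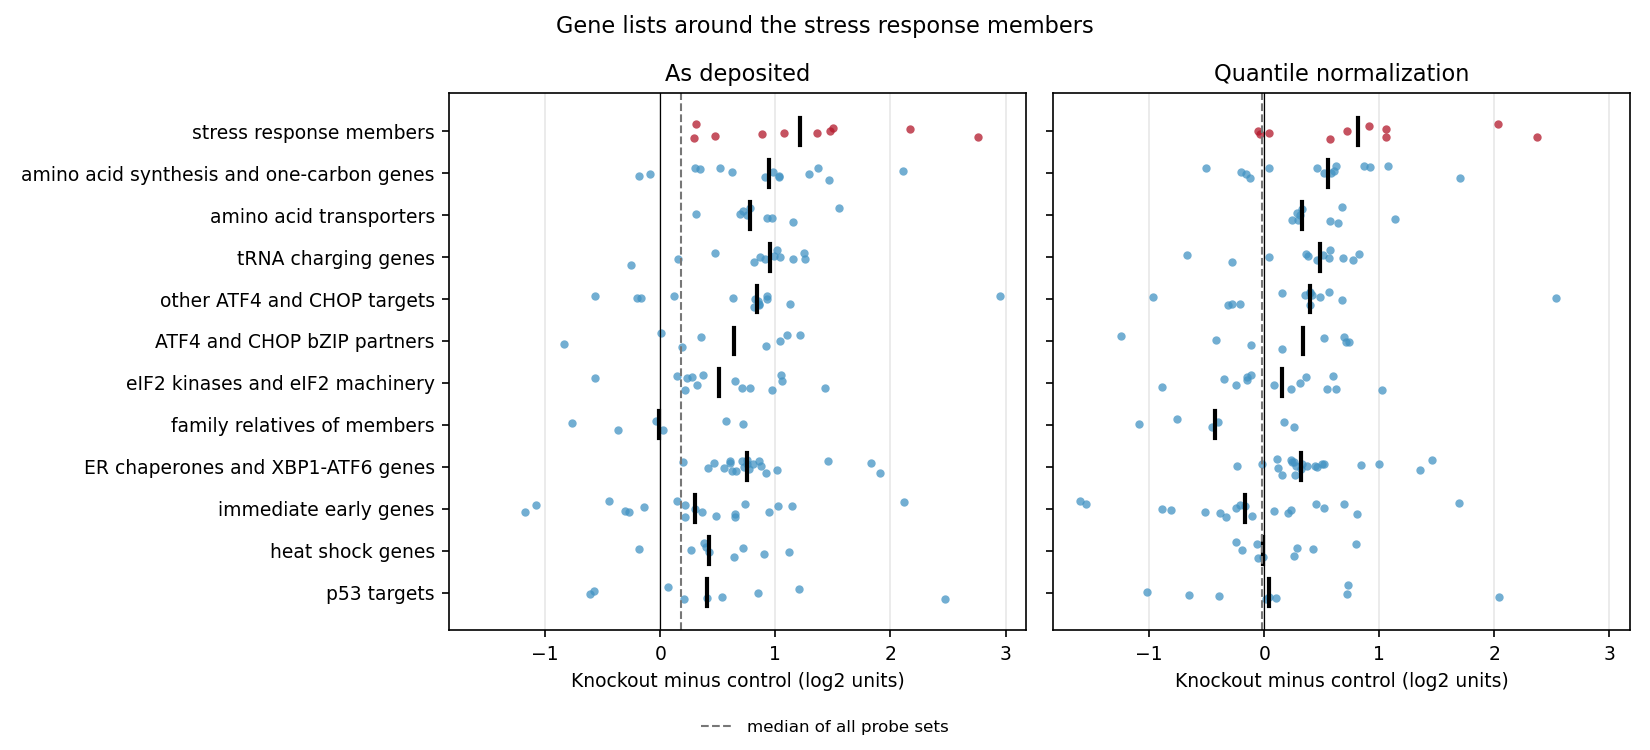
Knockout minus control difference in log2 units for every measured gene of each list (points), with the list median as a black bar and the median of all probe sets as a dashed line, as deposited (left) and after quantile normalization (right). The members' median of 1.22 as deposited and 0.81 after quantile normalization can be read against medians of 0.18 and -0.021 over all probe sets.

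Immediate early genes, which respond to serum, handling and growth signals as Atf3 also does, were given beside the stress genes. Of 19 genes 13 were higher as deposited, a share near the 65.1% of all probe sets. The median was 0.30 as deposited and -0.17 after quantile normalization, and 0 were called. Fos stood at 8.79 (MOCK) and 10.84 (WT) in the controls and 8.93 (clone 1) and 8.55 (clone 2) in the knockout, so WT was the array that stood apart. The same controls stood at 6.65 (MOCK) and 6.70 (WT) for Atf3. For Ppp1r15a they stood at 4.25 (MOCK) and 3.91 (WT), lower in WT and both below background. A link of these values to that of Fos was not tested.

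Genes next to each member on its chromosome were set beside it, to show whether its difference was shared along the chromosome. For each member the 10 measured genes on each side were taken in the RefSeq order. For Chac1, Ddit3, Trib3, Asns and Ppp1r15a 0 of 20 neighbours had a larger difference than the member, with neighbour medians of 0.26, 0.33, 0.21, 0.30 and 0.023 as deposited and -0.027, -0.042, 0.069, 0.099 and -0.22 after quantile normalization. Atf4 was exceeded by 3 of its 20 neighbours, on chromosome 15, and their median was 0.49, or 0.16 after quantile normalization, when 4 exceeded it. For Sesn2, on chromosome 4, 18 of 20 neighbours were higher in the knockout, with a median of 0.42 and 1 above Sesn2, against 65.1% of all probe sets higher, and after quantile normalization 12 of 20 were, with a median of 0.065. Cebpb and Atf3 were exceeded by 12 and 11 of 20, and by 13 and 12 after quantile normalization.

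**Figure D4:**
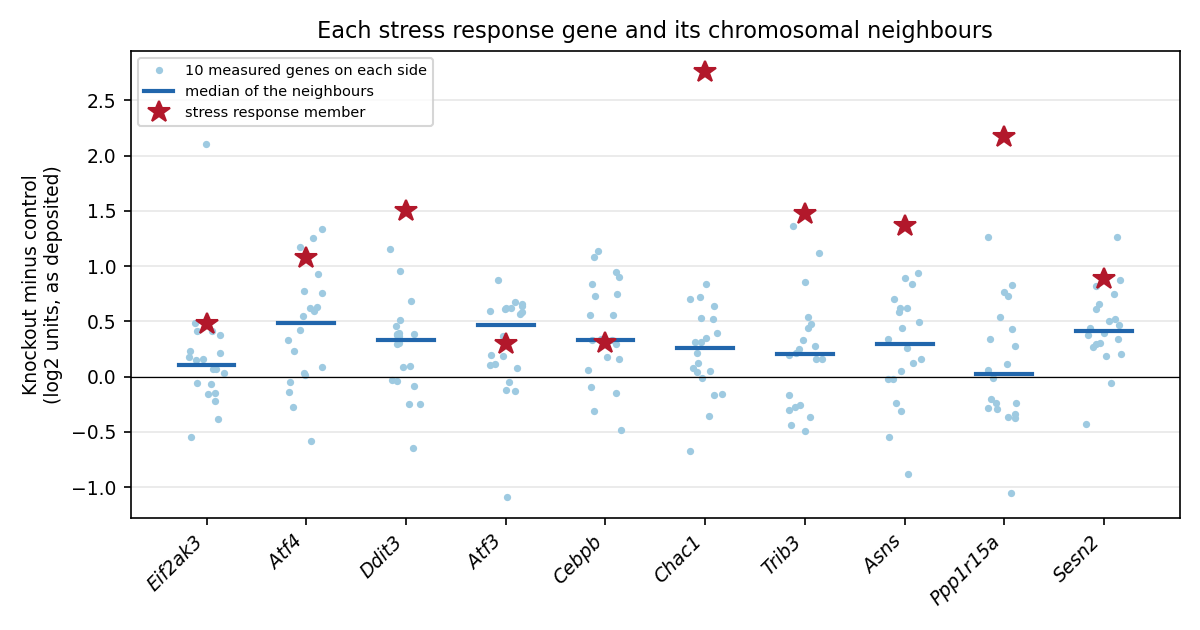
Knockout minus control difference as deposited, in log2 units, for each stress response gene and for the 20 measured genes nearest to it in gene order, with the neighbours' median marked. The differences of Chac1 (2.76) and Ppp1r15a (2.17) lie above all of their neighbours, and those of Atf3 and Cebpb lie within them.

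Genes with the profile most like a member's were found by the root mean square distance between profiles over the 4 arrays after quantile normalization, each profile centred on its own mean, among 9294 genes above background on all arrays. Nearest to Chac1 were Nnmt (distance 0.168 log2 units), Aqp1 (0.171), Rusc2 (0.356), Acot2 (0.358) and Rgs2 (0.388). Nearest to Ddit3 were Slc23a2 (0.034), Zc3hc1 (0.038), Clip4 (0.044), Zfp740 (0.0576) and Ypel5 (0.064). Among the members themselves the closest pairs were Eif2ak3 with Cebpb (0.141), which were both nearly flat on that scale, Trib3 with Asns (0.145) and Ddit3 with Asns (0.16). With 4 arrays such distances describe these samples only.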

How the data were processed

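Clariom S mouse arrays of 4 samples were used, 2 control and 2 knockout. The authors deposited log2 signals per probe set, made with the Transcriptome Analysis Console per the submitters' processing notes; the background correction, summarisation and normalization were not given in the sources available for this work. Groups follow the sample titles, since a cell label names the knockout on the control samples too. From 28846 features, 6640 controls were left out. Of the other 22206 probe sets 19572 had 1 gene symbol in the platform annotation, 0 several and 2634 none. Knockout and control were compared on the deposited log2 values with limma 3.58.1 in R 4.3.3 (lmFit and eBayes), with Benjamini-Hochberg adjustment over all 22206 probe sets and a threshold of 0.05. A fold is 2 to the power of the difference, and none is given for a signal near background, apart from the bound for Ppp1r15a. The number of arrays limits the precision.

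Alternatives were quantile normalization, median centring, cyclic loess, 2 filters on dim probe sets, eBayes with trend and robust, ordinary least squares, the mean over probe sets and leaving out each array. Cyclic loess, the other Ddit3 probe set, lists without background genes, counts without members whose controls lay below background and the comparison with MOCK alone were chosen after seeing the data. The scripts were tested on simulated data. The members and lists were chosen with earlier results of these data known. Named genes were all members, up to 4 genes of each list with the largest difference above background, the 5 genes most like Chac1 and Ddit3, and Mgat5. Psat1, Hspa5, Eif2ak1, Eif2ak4 and the cell type markers Epcam and Cd4 fall outside that rule and were named after their values were seen. Promoter sequences and gene order came from RefSeq, build GRCm38.p6.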

Additional observations from a re-analysis of the deposited data

Results flagged for a closer look

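Atf3 lay on opposite sides of both controls in the 2 clones. Clone 1 minus the control mean was 0.73 log2 units and clone 2 minus the control mean was -0.15, and after quantile normalization these values were 0.47 and -0.54. The difference between the clones was not tested, since each clone is 1 array.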

How the results depend on the processing

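The number of members called by limma was 0 as deposited and under quantile normalization, median centring and cyclic loess. It was 1 when probe sets dimmer than the median were left out and 2 when those at the negative control level were, or with the trend and robust setting, and it ranged from 0 to 2 when 1 array was left out, on either scale. The called members were Chac1 and Ppp1r15a, and Ppp1r15a passed the filter at the negative control level only through the clones. Of all probe sets kept, the filter at the median called 1.77% of 11103 and the one at the negative control level 1.86% of 12068. Over all probe sets the trend and robust setting called 1.53%, and the fits without clone 1 called 2.38% (3.62% on the quantile scale) and those without clone 2 0.671% (1.13%). For Chac1 the difference was 2.99 without clone 1, 2.52 without clone 2, 3.39 without MOCK and 2.12 without WT. The count at an unadjusted p under 0.05, which was 6, was 0 by ordinary least squares and ranged from 2 to 6 with 1 array left out, on either scale (3 on the quantile scale without clone 2). The median difference of 1.22 was 0.81 under quantile normalization and 0.84 under cyclic loess, and ranged from 0.66 (without WT) to 1.77 (without MOCK), or from 0.62 (without WT) to 1.08 after quantile normalization, with 0.64 without clone 2. The count of members at least 1 log2 unit higher in each clone fell from 5 to 2 under quantile normalization and 2 under cyclic loess. These counts take the below-background controls of Ppp1r15a as measured, and without that gene they were 4, 1 and 1. The stricter promoter motif gave 0 members in place of 4.

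Signs turned for weak members. Atf3 was -0.039 under quantile normalization, -0.19 on that scale without MOCK, -0.15 without clone 1 and -0.54 without clone 1 on the quantile scale, against 0.73 without clone 2. Cebpb was -0.054 under quantile normalization, -0.00304 under cyclic loess, and on the quantile scale -0.15 without MOCK and -0.20 without clone 2. Eif2ak3 was -0.00367 on the quantile scale without MOCK. Among list medians, the immediate early genes turned to -0.17 (quantile) and -0.089 (cyclic loess), the heat shock genes to -0.011 and -0.00797, and the eIF2 machinery to -0.038 against MOCK alone. Neighbour medians turned to -0.042 (quantile), -0.037 (cyclic loess) and -0.037 (5 genes on each side) for Ddit3, to -0.027 and -0.019 (quantile, cyclic loess) for Chac1, and, for quantile, median centring and cyclic loess, to -0.22, -0.11 and -0.20 for Ppp1r15a and -0.078, -0.029 and -0.055 for Eif2ak3. The cause was not tested. A left-out array leaves a lone array in its group, which is assumed to vary like the other group. No paired analysis was made, because no label matches a control to a clone.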

Other observations

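Among the p53 targets 7 of 9 were higher in the knockout as deposited, against 65.1% of all probe sets. The median was 0.40 as deposited and 0.043 after quantile normalization, with 0 called. Cdkn1a, the gene of the cell cycle inhibitor p21, stood at 10.52 (MOCK) and 10.10 (WT) in the controls and 12.57 (clone 1) and 12.99 (clone 2) in the knockout. Both clones were above both controls (difference 2.47, limma, SE 0.39, adjusted p = 0.066, and 2.04 after quantile normalization). Plk2, a polo-like kinase gene, differed by 1.20 and 0.72 on these scales, again without overlap.

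Of the heat shock genes 8 of 9 were higher as deposited (65.1% of all probe sets) and 4 of 9 after quantile normalization (48.3%), with 0 called. Hspa1b, an inducible chaperone gene, stood at 6.65 (MOCK) and 6.14 (WT) in the controls and 7.42 (clone 1) and 7.59 (clone 2) in the knockout, and the clones were the highest arrays (difference 1.12, limma, SE 0.39, adjusted p = 0.435, and 0.80 after quantile normalization). Egr2, an immediate early transcription factor, stood at 7.06 (MOCK) and 8.04 (WT) in the controls and 9.24 (clone 1) and 10.09 (clone 2) in the knockout, above both controls in both clones (difference 2.12, SE 0.47, adjusted p = 0.189, and 1.69 after quantile normalization). Fosb was lower in both clones, with a difference of -1.18, or -1.61 after quantile normalization.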
